A study of Mus musculus and synthetic construct with 21 samples.

Results

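PPARγ binding was measured on transfected plasmids for pairs of genomic elements that carry the same 16-base motif in different surroundings, named w and c. The members were the native elements, written wt and ct in the names, for which both elements of 1 site number appeared in the ChIP table. There were 339 such pairs, or 678 of the 1992 elements in the table, out of 750 numbers in the pool. A further 228 native w elements and 100 native c elements were listed without their partner, and 83 numbers had neither. The names do not spell out what w and c stand for, and differences are given as w minus c. Each number can also have a form written wd and cd, read here as the same element with its motif altered.

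The cells were 3T3-L1, a mouse line that turns from pre-adipocytes into adipocytes when induced, here with IBMX at 0.5 mM, dexamethasone at 1 µM and insulin at 1.7 µM. Chromatin was taken 16 h after transfection, and DNA bound by PPARγ was pulled down with an antibody against it. The stage of differentiation at transfection was not given in the sources used here, and plasmid reads hold no marker genes against which the cell type could be checked. There was 1 ChIP library with 1987761 reads and 1 input library (chromatin before the pull-down) with 1381624 reads. Neither had a replicate, so no p-value is given, and every spread is over pairs or elements of this single experiment.

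PPARγ is a nuclear receptor and the central regulator of fat cell formation. It binds DNA as a dimer with RXR at DR1 motifs, which are direct repeats of the hexamer AGGTCA separated by a single base, and the dimer also touches the bases just before the repeat. On a chromosome, binding depends on the motif, on neighbouring factors and on whether the chromatin is accessible. A plasmid removes most of the native chromatin, so the pairs compare 1 motif in different flanking DNA. Closeness to DR1 was counted in the names' 16 bases, where the hexamers lie at bases 4 to 9 and 11 to 16 with a spacer at base 10.

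The motifs below carry the comparison. They are shown because they belong to the pairs bound most strongly in both surroundings, the pairs with an exact DR1, and the pairs whose elements differed most. Each is given 5′ to 3′ on the strand in its name. Capitals mark bases that match the hexamers, and all other bases are in lower case. Coordinates are of mm9 and counted from 1, and span the 16 bases. No annotation of that build was used here, so sites were not assigned to genes. The 5 pairs with the highest value of the less bound element were as follows.
Pair 403, w at chr7:107610206-107610221, c at chr7:18806374-18806389: agtgGGTgAagGGTCA
Pair 419, w at chr10:68784344-68784359, c at chr16:95590524-95590539: actgGGgCAaAGtTgA
Pair 360, w at chr5:30496954-30496969, c at chr13:57352957-57352972: actAGGTtAaAGGTaA
Pair 688, w at chr4:135682143-135682158, c at chr7:148356715-148356730: actgGGTgAaAGGgCA
Pair 569, w at chrX:53859926-53859941, c at chr4:102929935-102929950: actAaGgCAgAGGTCA

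The motif of 2 pairs matched both hexamers without a mismatch. They were picked for their sequence and lie outside the rule for naming pairs.
Pair 422, w at chr7:135719518-135719533, c at chr1:42161710-42161725: tttAGGTCAgAGGTCA
Pair 450, w at chr5:112670341-112670356, c at chr7:72156394-72156409: tggAGGTCAaAGGTCA

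The 6 pairs with the most binding to w relative to c carried these motifs.
Pair 324, w at chr8:113371936-113371951, c at chr4:5542716-5542731: tttAGGTgAgAGGTtA
Pair 547, w at chr19:5444649-5444664, c at chr5:102218954-102218969: gatgGGgCAagGGgtA
Pair 92, w at chr11:69475160-69475175, c at chr7:102640186-102640201: accAGGTCAaAGaTtc
Pair 304, w at chr4:15865443-15865458, c at chr7:36441241-36441256: aggAGGTgAgAGtTCt
Pair 258, w at chr13:70928163-70928178, c at chr16:96410896-96410911: accAGGTCAagGGcCA
Pair 43, w at chr1:65224199-65224214, c at chr12:73314887-73314902: agtAtGgCAaAGGgtt

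The 6 pairs with the most binding to c relative to w carried these motifs.
Pair 492, w at chr9:32707627-32707642, c at chr17:24195650-24195665: gctgGGTgAgAGGgCA
Pair 407, w at chr13:99262451-99262466, c at chr14:90590352-90590367: agtAGGgagaAGGgtA
Pair 280, w at chr5:138648850-138648865, c at chr8:22795036-22795051: ggtgGGTCAtgGGgCA
Pair 398, w at chr15:101153307-101153322, c at chr8:53450035-53450050: aggAGGggAggGtTCA
Pair 359, w at chr6:115893805-115893820, c at chr8:13841593-13841608: actgGGgCAaAGtTCc
Pair 566, w at chr6:88677177-88677192, c at chr14:68260936-68260951: actgGagCAaAGGcaA

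The w elements were bound somewhat more than the c elements with the same motif, and the pairs spread widely around that difference. Binding is the log2 ratio of an element's share of the ChIP reads to its share of the input reads, with 1 read added to each count, so that 0 means equal shares. It averaged 0.36 ± 0.91 in w elements and 0.07 ± 0.78 in c elements (SD, n = 339 each). The middle 50% of elements ran between -0.19 and 0.85 for w, and between -0.44 and 0.50 for c. The difference of w minus c was 0.29 ± 1.00 (SD, n = 339 pairs), or 1.23-fold, with a median of 0.24. It was above 0 in 212 pairs, or 62.5%. The mean difference was thus smaller than the SD between pairs. Some pairs had w motifs close together, so that their w surroundings may overlap. Examples are pairs 125 and 126, starting at chr8:90491378 and chr8:90491393, and pairs 112 and 51, starting at chr5:64717780 and chr5:64717870. Elements listed without their partner had similar levels, 0.37 ± 0.91 for w (n = 228) and 0.09 ± 0.86 for c (n = 100). The median distance between the elements of a pair, in either direction, was 0.63, or 1.55-fold. Between the altered elements of a number it was 0.59, or 1.51-fold (n = 317).

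Most pairs, native or altered, held their elements within 2-fold of each other, and the larger differences more often favoured w. The w element was at least 2-fold above its partner in 76 of 339 native pairs (22.4%), and the c element was at least 2-fold above in 26 (7.67%). In the altered pairs these shares were 14.5% (46 of 317) and 10.1% (32 of 317). Lying within 2-fold was thus not more common with the native motif. The interval of the difference that counting error alone allows was an exact 95% interval of the odds ratio of the reads. It lay above 0 in 168 native pairs (49.6%), below 0 in 86 (25.4%), and included 0 in 85. In altered pairs it lay above 0 in 40.1% (127) and below 0 in 32.8% (104). Reads are not independent molecules and the variation between repeated ChIPs was not measured, so these intervals cover counting error only.

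A minority of the spread in binding was shared by elements with the same motif, and the larger part lay within pairs. Over the 678 elements the variance of binding was 0.741, an SD of 0.86. The pair accounted for 30.2% of it, measured as the covariance of w and c elements around their class means. The mean difference between the classes accounted for 2.92%, and counting error for 1.65%. The other 65.2% lay between elements with the same motif. Surroundings are part of this remainder, and they cannot be told apart from the noise of a single ChIP beyond counting. The w and c values of a pair correlated with r = 0.315 and rho = 0.286 (n = 339 pairs, r = 0.325 without the 2 farthest). The SD of the difference within pairs was 1.00, against 1.20 for unrelated elements with the same spreads.

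In the altered pairs the partners no longer resembled each other. The variance shared by altered w and c elements was -0.340% of their total, a covariance just under 0, and the total itself was smaller, 0.440 over 317 pairs. Their r was -0.00344 and their rho 0.0376. The SD of their difference was 0.94, and it was also 0.94 for unrelated elements. Altered w elements averaged -0.11 ± 0.70 and altered c elements -0.23 ± 0.63 (SD, n = 317 each). Both native means were above these, and native pairs also spread more. The names give the same 16 bases for native and altered forms, so whether partners share the altered sequence is not known from them.

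The c elements stood highest beside the most strongly bound w elements. With pairs sorted into 4 bins by the binding of the w element, the c elements averaged -0.17, -0.06, -0.01 and 0.51 from the lowest to the highest bin (n = 85, 85, 84 and 85; SD between 0.66 and 0.83). Sorted by the c element, the w elements averaged 0.03, 0.24, 0.39 and 0.79 (same n; SD between 0.73 and 0.98). Among altered pairs sorted by w, the c elements averaged -0.22, -0.27, -0.18 and -0.23 (n = 80, 79, 79 and 79). The native bins were ordered and the altered ones were not, and the SDs exceeded the steps between bins in both.

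A cutoff was taken from the altered elements, chosen after seeing the data. Of the native w elements of the pairs, 77 (22.7%) lay above the 95th percentile of altered w elements, which was 0.92. Of the native c elements, 61 (18%) lay above that of altered c elements, which was 0.74. Both elements of a pair did so in 30 pairs, w alone in 47, c alone in 31 and neither in 231. Where the w element was above its cutoff, 39.0% of c partners were above theirs (30 of 77), against 11.8% (31 of 262) where it was not.

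Binding was correlated both between elements that share only the motif and between elements that share only the surroundings. The 2 were set side by side at the 293 numbers with all 4 elements. Native w and native c elements, which share the motif, correlated with r = 0.329 (rho = 0.284). Native and altered w elements, which share the surroundings, correlated with r = 0.387 (rho = 0.418), and native and altered c elements with r = 0.305 (rho = 0.370). Where only the number was shared, r was 0.00641 for altered w with altered c, -0.0702 for native w with altered c, and 0.0262 for native c with altered w. The rank correlations were somewhat higher for shared surroundings than for the shared motif, and the difference was not tested. All points come from the same 2 libraries.

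The partner and the altered form described largely separate portions of native binding. At these 293 numbers, the partner with the same motif described 10.8% of the variance of native w binding in a linear fit, the altered element with the same surroundings 14.9%, and both together 25.1%. For native c binding the values were 10.8%, 9.29% and 21.6%. The single figures are the squares of the correlations given above. In each class, the figure for both was close to the sum of the separate ones, which follows from the near-zero correlation between the 2 describing elements given above. Most of the variance was described by neither.

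Differences between surroundings with the native motif went along with those with the altered motif, and the losses on alteration were correlated between partners. Across the 293 numbers, the native difference of w minus c correlated with the altered difference of w minus c with r = 0.457 (rho = 0.493). Native w minus c averaged 0.30 ± 0.97 and altered w minus c 0.10 ± 0.93 (SD, n = 293). The loss, native minus altered, averaged 0.48 ± 0.90 in w and 0.29 ± 0.83 in c, and correlated between them with r = 0.343 (rho = 0.309). In each relation the differences on its 2 sides share no element.

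Input depth also followed the surroundings. The log2 input count correlated at r = 0.878 between native and altered w elements (n = 541) and at r = 0.902 between native and altered c elements (n = 404), against 0.0541 between native w and c partners (n = 339). Binding was lower at higher input counts, with r = -0.310 for native w elements (n = 567) and r = -0.253 for native c elements (n = 439). Within pairs, the difference in log2 input count correlated with w minus c in binding at r = -0.344 (rho = -0.358, n = 339). Among the pairs named for their difference, the more bound element had fewer input reads in pairs 324, 304, 258, 43, 280, 359 and 566. It had more in pairs 547, 92, 492, 407 and 398. Since the input count is also the denominator of binding, part of these relations is arithmetic. The linear relation to input was also removed, an alternative chosen after seeing the data. For native partners r was 0.343 with it removed, against 0.315 without this step. For native and altered w elements it was 0.379 against 0.441 (n = 541), and for native and altered c elements 0.312 against 0.355 (n = 404). The last 2 comparisons are over every number with both forms, more than in the side-by-side comparison above. The variance shared within pairs was 33.0% with the relation removed. The resemblance of partners was larger among the deeper pairs, with r = 0.382 where the smaller input count was at least its median of 237 reads (n = 171), against 0.258 below it (n = 168).

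Pair 403 had the highest value of the less bound element, while single elements of other pairs reached 3.00 for w and 2.33 for c. Its w element had 2464 ChIP and 224 input reads, and its c element 10161 and 1448, which gave binding of 2.93 for w and 2.29 for c. With the motif altered, binding was -0.97 for w and -0.27 for c. Both elements of this pair thus stood high with the motif and below 0 without it.

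The other 4 pairs bound strongly in both surroundings had w and c values within 1.43-fold of each other. Picking pairs by the value of their less bound element favours such closeness. Pair 419 had 2.35 for w (935 ChIP and 127 input reads) and 2.15 for c (2184 and 342). Pair 360 had 2.60 for w (958 and 109) and 2.09 for c (2651 and 433). Pair 688 had 2.07 for w (1429 and 236) and 1.94 for c (1005 and 181). The counting interval of w minus c included 0 in pairs 419, 688 and 569. Pair 569 had 1.83 for w (557 and 108 reads) and 1.70 for c (1516 and 323). Its altered elements stood at 1.35 for w and 0.15 for c, so the altered w element stood well above the altered c element. In pair 419 they stood at 1.23 for w and 0.27 for c. In all, 22 of 339 pairs had both elements above 1. The 90th percentile of single native elements in the pairs was 1.56 for w and 1.07 for c.

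Both elements lay below -0.5 in 13 of 339 pairs. Single elements this low were also a minority. The lower quartile of native elements in the pairs was -0.19 for w and -0.44 for c, and the 10th percentile -0.58 for w and -0.86 for c. The 5 named pairs with the lowest value of the more bound element were 182, 251, 205, 40 and 630. Pair 182 had -1.32 for w and -0.995 for c, while its altered elements stood higher, at 0.26 for w and 0.37 for c. Its motif, shown here because it has only 2 mismatches to the hexamers, was the following.
Pair 182, w at chr5:149764926-149764941, c at chr7:31360648-31360663: aagAGGgaAaAGGTCA

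The other low pairs had more mismatches. Pair 40, the deepest of them, had 3247 ChIP and 3621 input reads for w and 1652 and 1826 for c, and binding of -0.68 for w and -0.67 for c. Pair 251 had -0.73 for w and -0.81 for c. Pair 630 had -0.68 for w and -0.64 for c. Pair 205 had -0.71 for w and -2.22 for c, so it was low in both and also unequal.

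With an exact DR1, the elements of both pairs stood high for their class. Both w elements lay above 1.56, the 90th percentile of native w elements in pairs. Both c elements lay above 0.50, the upper quartile of native c elements, and below 1.07, their 90th percentile. In pair 422 the w element had 1692 ChIP and 304 input reads, a binding of 1.95, and the c element 1233 and 418, a binding of 1.03. In pair 450 the values were 1.95 for w (6397 and 1149 reads) and 0.64 for c (2227 and 993). With the motif altered, pair 422 had -0.36 for w and -0.11 for c, and pair 450 had 0.22 for w and -0.22 for c. The same exact repeat was thus bound 1.88-fold and 2.48-fold more in w than in c surroundings.

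Binding to w was highest relative to c in pair 324. The w element had 752 ChIP and 103 input reads and a binding of 2.33, and the c element 200 and 196 and a binding of -0.50, a difference of 2.83 (95% counting interval 2.41 to 3.27), or 7.10-fold. Of its altered elements, w stood at 0.63 and c at -0.55. The w element thus stood lower in its altered form, and the c element was low in both forms.

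Pair 92 differed by 2.54 (interval 2.30 to 2.79), with 1.35 for w and -1.20 for c. Its altered elements differed in the same direction, with 0.45 for w and -1.73 for c. The altered elements of this pair thus still differed by 2.18. Pair 258 differed by 2.42, with 1.81 for w (1158 ChIP and 228 input reads) and -0.61 for c (2274 and 2406). Its altered elements were closer together, at -0.21 for w and -0.58 for c, so most of its difference was seen only in the native forms. Pair 547 differed by 2.70, with 0.69 for w and -2.01 for c from 60 ChIP and 170 input reads. There the altered c element stood higher, at 1.01, than the altered w element, at 0.07. Pairs 304 (2.52) and 43 (2.31) had no altered w element in the table.

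Among the pairs that favoured c, pair 492 stood apart because its w element had a single ChIP read beside 127 input reads. Its w minus c of -5.97 has a counting interval of -12.3 to -4.42. Its c element had 201 ChIP and 205 input reads, a binding of -0.55, and its altered w element had 179 and 154, a binding of -0.31. It was the only pair with an element under 20 ChIP reads. Without it the mean difference of w minus c was 0.31 and r between partners 0.326.

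Pair 407 had -1.40 for w (68 ChIP and 126 input reads) and 2.33 for c (985 and 135), a difference of -3.74 (interval -4.28 to -3.24), or 13.3-fold more binding to c. Its altered c element also stood high, at 1.27. Pair 280 had -0.61 for w and 1.54 for c, and its altered elements differed the same way, at -0.81 for w and 0.90 for c. In both pairs the altered c element was above 0. Pair 398 had -2.51 for w and -0.43 for c. In pairs 359 and 566 the altered c elements lay just under 0, and the altered w elements lay lower still. Pair 359 had -0.51 for w and 1.26 for c, and its altered elements stood at -0.91 for w and -0.13 for c. Pair 566 had -0.74 for w and 0.85 for c, and its altered elements stood at -2.16 for w and -0.12 for c, so they differed by more than the native ones.

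Motifs closer to DR1 were bound more in both surroundings, while closeness showed almost no correlation with the difference between them. Across the 339 motifs the number of mismatches to the hexamers correlated with binding at r = -0.239 for w and r = -0.258 for c, and at r = -0.305 with the mean of the pair (rho = -0.321). With w minus c, r was -0.0171. With the altered elements of the same numbers, r was -0.0512 for w (n = 320) and -0.0672 for c (n = 312). Closeness was thus related to the mean of a pair far more than to its difference.

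The levels by mismatch count declined in both classes from 2 mismatches on. At 2 mismatches (n = 37), binding averaged 0.76 ± 0.95 in w and 0.41 ± 0.82 in c. At 3 (n = 111) it averaged 0.44 ± 1.01 in w and 0.20 ± 0.85 in c, at 4 (n = 103) 0.24 ± 0.79 in w and -0.12 ± 0.66 in c, and at 5 (n = 62) 0.10 ± 0.74 in w and -0.13 ± 0.72 in c. The SDs exceeded the steps, so motifs with the same count were bound very differently. With 1 mismatch (n = 16) the averages were 0.64 ± 0.94 in w and 0.41 ± 0.80 in c, no higher than with 2. The w mean exceeded the c mean at every count. Mismatches in the first and in the second hexamer were related to the pair mean to a similar degree, with r of -0.192 and -0.187.

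Single bases showed which letters of the motif went with binding in both surroundings. Motifs with T at base 14, the fourth base of the second hexamer, averaged 0.35 higher in w and 0.28 higher in c than motifs with another base there (186 against 153 motifs). Motifs with T at base 7, the fourth base of the first hexamer, averaged 0.22 higher in w and 0.30 higher in c (100 against 239). T at base 7 was the rarest match to AGGTCA, present in 100 of the 339 motifs. Other hexamer bases went with small contrasts. With A at base 4, the first base of the repeat, binding averaged 0.10 higher in w and 0.05 higher in c (151 against 188). The contrast of a match was 0.03 in w and -0.04 in c at base 12. It was 0.02 in w and -0.03 in c at base 15, and 0.04 in w and 0.05 in c at base 16.

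Outside the hexamers, the spacer and the base before the repeat also went with binding. With A at the spacer, base 10, binding averaged 0.48 ± 0.85 in w and 0.17 ± 0.80 in c (n = 212), and with G there 0.15 ± 1.01 in w and -0.12 ± 0.72 in c (n = 115). With T at base 3, just before the repeat, it averaged 0.47 ± 1.00 in w and 0.19 ± 0.81 in c (n = 212), 0.29 and 0.32 above motifs with another base there. Motifs with T at base 3 had on average 0.72 more mismatches to the hexamers than the others, yet they were bound more in both classes. In altered elements the contrast at base 3 was -0.01 in w and -0.03 in c, and that at base 10 was -0.06 in w and -0.07 in c. The contrast at base 14 was 0.17 in altered w and -0.0002 in altered c. At base 7 it was 0.03 in altered w and 0.11 in altered c. The bases described were singled out after all 16 were examined, and they are not independent of each other. The share of G and C in the 16 bases was related to binding of the pair at r = -0.242 (rho = -0.223), and to w minus c at r = -0.000637.

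Some motifs occurred at several w sites. There were 8 motifs found at more than 1 native element of a class, 20 elements in all, and the 6 described here lay at w sites. None had a c partner among the 339 pairs. The motif with the widest spread and that found at most sites are shown.
Motif at w sites 601 and 743: agtgGGggAaAGGTCA
Motif at w sites 97, 111, 116, 278 and 487: tgtgGGTCAcAGGcCc

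At w sites 601 (chr15:89026335-89026350) and 743 (chr13:113255581-113255596) the first of these gave binding of 3.24 (2430 ChIP and 178 input reads) and 0.72 (8787 and 3713), a 5.74-fold difference. The second lay at 5 places within chr11:68546956-68547191, at steps of 44 or 88 bases, so that the surroundings of these w elements may overlap. Its binding was 0.54 at site 487, -0.41 at site 278, 0.39 at site 116, -0.17 at site 97 and 0.01 at site 111. Over the 6 motifs the spread between the lowest and the highest site ran from 0.06 to 2.52. The sites of 2 further motifs were also near neighbours, at steps of 41 bases (sites 676, 599 and 477) and 116 bases (sites 689 and 720), so 3 of the 6 motifs may not show separate surroundings.

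Enhancer activity of the same pairs was higher in w than in c surroundings in most pairs. Activity is the median log2 ratio of RNA to plasmid counts over an element's barcodes, from 1 RNA and 1 plasmid library of the reporter assay. It averaged 0.44 ± 1.05 in w elements and -0.53 ± 0.40 in c elements (SD, n = 339), a difference of 0.97 ± 1.13 that was above 0 in 286 pairs. Activity of partners showed almost no correlation (r = -0.0183, rho = -0.0242), while their binding correlated at r = 0.315. Native and altered w elements, which share the surroundings, correlated in activity with r = 0.679 (rho = 0.510, n = 293). For native and altered c elements r was 0.327 (rho = 0.378, n = 293).

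The difference in binding within a pair showed almost no relation to the difference in activity. Differences of w minus c in binding and in activity correlated with r = 0.0534 (rho = 0.0731, n = 339). Where w was bound at least 2-fold more than c, w activity exceeded c activity by 1.01 ± 1.27 (n = 76), and it did so by 0.97 ± 1.09 (n = 237) where the pair was within 2-fold. Where c was bound at least 2-fold more, w was still more active, by 0.81 ± 1.04 (n = 26). The w element was more active in 64 of these 76 pairs, 201 of the 237 and 21 of the 26. Over all 339 pairs it was more bound in 212 and more active in 286. It was both in 179 pairs, less bound and more active in 107, more bound and less active in 33, and neither in 20. The w element was thus about as often the more active whichever element was more bound. Pair 403 had an activity of 0.53 in w and -0.34 in c. Pair 407 had 0.28 in w and -0.91 in c, although its c element was bound 13.3-fold more. The mean binding of a pair did relate to its mean activity, with r = 0.203 (rho = 0.303).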

How the data were processed

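The table held raw read counts per element for the ChIP and the input library, as deposited by the authors. Reads were aligned with BWA 0.7.12 and the build was mm9, per the submitters' processing notes. RNA and plasmid counts per barcode, also as deposited, gave enhancer activity as the median log2 ratio over barcodes with at least 20 plasmid reads. From these, binding was computed as the log2 ratio of ChIP to input shares with a pseudocount of 1, and an input minimum of 20 reads left out no element, since the lowest count was 101. Counting intervals were exact 95% intervals conditional on the reads of a pair. The ChIP count equalled the input count times the element's reporter ratio within 0.5 reads in 1 of 1992 elements. Pairs were named by rank: 6 for each direction of the difference, 5 bound in both and 5 low in both surroundings. The 15 pairs with an element on a chromosome not reported here were counted and not named. Members and lists were chosen with earlier results of these data known. Alternatives covered the pseudocount, minimums on input and ChIP counts, numbers with all 4 elements, repeated motifs, rank correlation, the strand searched and, added after seeing the data, binding with its relation to input removed. The calculations were tested on simulated data and used Python 3.11.15, numpy 2.4.6, pandas 2.3.3 and scipy 1.17.1. Sequence around the motifs was not used here.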

Additional observations from a re-analysis of the deposited data

How the results depend on the processing

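Of 126 alternative values over 15 results, 110 stayed within 1.5 times the reported value and 16 moved by more. Some of the 110 could not move. All 339 pairs had distinct motifs, so keeping 1 pair per repeated motif left every value unchanged. Searching only the named strand also changed nothing. Counting intervals use raw reads, so neither the pseudocount nor removing the relation to input could alter their counts. Of the 16, 6 were of the correlation of altered w with altered c, reported at -0.00344. It was -0.00222 with a pseudocount of 5, -0.00718 and 0.120 with at least 200 and 400 input reads, 0.00641 at numbers with all 4 elements, 0.0376 as Spearman's rho and -0.0517 with the relation to input removed, so its sign changed under 3 alternatives. None of the other results changed sign under the alternatives run. Their 10 moves came with a higher input minimum, which left fewer pairs. With at least 200 input reads, 201 pairs were left, of which 37 had w and 15 had c at least 2-fold above its partner, and the counting interval lay above 0 in 101 and below 0 in 53. With at least 400 input reads, 95 pairs were left, and these counts were 15, 4, 53 and 21. There the difference between classes made up 5.77% of the variance and counting made up 0.806%. Over all alternatives the mean of w minus c was 0.28 to 0.36, Pearson's r between native partners 0.312 to 0.428 (Spearman's rho was 0.286), and the variance left within pairs 53.4% to 65.6%. With no second ChIP, the noise of the experiment beyond counting cannot be told apart from surroundings.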
